A study of Mus musculus with 8 samples.

Results

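The genes described here are 10 genes of copper handling and metal binding, read in microglia from mice fed the copper chelator cuprizone. The members were a fixed list of symbols, each matched to its row of the deposited gene table: the metallothioneins Mt1, Mt2 and Mt3, the copper transporters Slc31a1, Slc31a2 and Atp7a, the copper chaperones Atox1 and Ccs, and the copper enzymes Sod1 and Cp. Each symbol had 1 row, all 10 are protein-coding, and all 10 were among the 22546 genes tested of the 46983 in the table.

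The study sequenced total RNA in 8 libraries from microglia, brain-resident macrophages, of the corpus callosum, a myelin-rich tract, of mice on a hybrid FvB/C57BL6 background. All mice carried Cx3cr1-CreER, a tamoxifen-inducible Cre recombinase under a promoter that other macrophages also use, received tamoxifen at 8 weeks of age and then ate 0.2% cuprizone for 6 weeks. The sample names give 4 WT libraries (QKLoxP/+ by the labels' definition) and 4 Qk-KO libraries (QKLoxP/LoxP), numbered 1 to 4. The WT mice therefore also carried the recombinase and a flanked allele of Qk, the gene of the RNA-binding protein quaking. The genotype field states the other genotype for 4 libraries, numbers 2 and 3 of the former and numbers 1 and 3 of the latter. Libraries are called WT-named and Qk-KO-named here, followed by their number. The leading comparison is between the named groups, and the grouping by genotype field is given beside it. No label says that each library came from its own animal, so p-values measure the spread between libraries, which may be technical. No library from mice without cuprizone was analysed here, so a response to the diet itself cannot be read from these data.

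Copper enters cells through SLC31A1, a pore for reduced copper, is passed on by small chaperones, and leaves through the P-type ATPase ATP7A, which also loads copper onto enzymes in the secretory pathway. ATOX1 carries copper to ATP7A, and CCS carries it to SOD1, the cytosolic enzyme that removes superoxide. Metallothioneins are short, cysteine-rich proteins that bind zinc and copper. Mt1 and Mt2 are induced by metals through the transcription factor MTF1, which binds metal response elements in their promoters, and by glucocorticoids and inflammatory signals. Mt3 is known from neurons and astrocytes, and Cp encodes ceruloplasmin, a copper-carrying ferroxidase that astrocytes hold at their surface.

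The metallothionein genes lie in a cluster on chromosome 8, and the sequence before 1 RefSeq start site of each is shown. The 250 bases before the RefSeq start site (GRCm38.p6, plus strand) are printed from 5′ to 3′. Capitals mark the 7-base core of the metal response element, searched as TGCACNC and TGCGCNC on both strands, where N is any base.
Mt1, chr8:94178839-94179088: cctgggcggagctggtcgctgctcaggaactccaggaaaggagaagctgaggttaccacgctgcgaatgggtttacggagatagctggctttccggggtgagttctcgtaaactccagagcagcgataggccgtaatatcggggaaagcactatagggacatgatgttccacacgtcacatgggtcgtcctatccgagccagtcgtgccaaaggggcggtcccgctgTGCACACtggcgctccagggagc
Mt2, chr8:94172368-94172617: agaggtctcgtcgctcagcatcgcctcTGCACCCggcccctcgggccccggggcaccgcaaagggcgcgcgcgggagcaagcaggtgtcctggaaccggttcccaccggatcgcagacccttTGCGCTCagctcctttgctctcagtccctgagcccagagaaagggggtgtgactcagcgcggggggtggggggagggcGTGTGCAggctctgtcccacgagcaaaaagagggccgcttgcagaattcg
Mt3, chr8:94152357-94152606: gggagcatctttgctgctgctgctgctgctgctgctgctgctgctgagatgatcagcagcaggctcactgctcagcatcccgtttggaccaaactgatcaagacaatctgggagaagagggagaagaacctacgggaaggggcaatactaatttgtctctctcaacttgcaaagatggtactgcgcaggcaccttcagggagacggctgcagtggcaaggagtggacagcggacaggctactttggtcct
The Mt1 window held 1 such core, from 23 to 17 bases before the start. The Mt2 window held 3, from 223 to 217 and from 128 to 122 bases before the start on the plus strand and from 50 to 44 bases before it on the minus strand. The Mt3 window held 0. Of 32851 RefSeq promoter windows of this length, 21.4% held at least 1 core and 1.26% at least 3. Among the other members with a window in the table (Slc31a1, Slc31a2, Atp7a, Atox1, Sod1 and Cp), Atp7a held 2 and Slc31a2 held 1. These are letter matches in short windows, not measured binding. The Mt1 window ends at 94179088, beside the first annotated base of the gene (94179082). Cores further 3′, before any later start, were not searched, so the counts do not rank the genes by their cores. A part of these cores in the levels was not tested.

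Rough totals of reads assigned to genes ranged from 43.9 M to 69.7 M per library. Depth differed between the named groups, with size factors, the authors' scaling for depth as read back from the table, of 1.05 to 1.26 in WT-named and 0.753 to 0.997 in Qk-KO-named. All 12 microglial markers had reads in these libraries, with summed levels of 26155 to 28452 CPM in WT-named and 22494 to 25490 CPM in Qk-KO-named. Differences were negative for 10 of the 12, and 3 were called lower in Qk-KO-named in the authors' deposited table, where 1.22% of all genes were called: Cx3cr1, Csf1r and Sall1, at log2 fold changes of -0.70, -0.28 and -0.39. Limma called none of the 12. The largest difference among them was that of P2ry12, -1.74 ± 0.53 (SE; limma, adjusted p = 0.485), also not called in the authors' deposited table. Its regularized log2 values ranged from 14.82 to 14.99 in WT-named and from 12.09 to 14.40 in Qk-KO-named. By genotype field its difference was -0.99 (limma, adjusted p = 0.9995). Qk itself ranged from 15.37 to 15.50 in WT-named and from 15.29 to 15.69 in Qk-KO-named on the regularized log2 scale. That value covers all exons, including any outside the deleted part, so it checks the genotypes little.

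Over the 8 libraries, the chaperone Atox1, the metallothionein Mt1 and the enzyme Sod1 had the highest levels per length of the 10 genes. Levels are given as CPM, the share of all signal scaled to a fixed library total, taken from the authors' mean signal, divided by the kilobases of all annotated exons. On this scale Atox1 was at 119.6, Mt1 at 51.9, Sod1 at 21.9, Slc31a2 at 20.3, Atp7a at 11.5, Slc31a1 at 10.4, Ccs at 10.3, Mt2 at 7.08, Mt3 at 2.60 and Cp at 1.60 CPM per kb. Atox1 ranked 353rd of 22384 tested genes with a length, and Cp 10479th. The length used mattered for the order. With the principal transcript of each gene, an alternative chosen after the data were seen, Sod1 was at 135.7, Atox1 at 119.6 and Mt1 at 117.7 CPM per kb, because an annotated Sod1 transcript that retains introns spans 3970 bases against 641 in the principal transcript. Slc31a2 (22.7), Atp7a (20.5), Ccs (17.1), Slc31a1 (11.9), Mt2 (8.15), Mt3 (5.18) and Cp (3.79) followed. The mean signal has no spread over libraries, so neighbours in this order were not tested against each other.

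**Figure D1:**
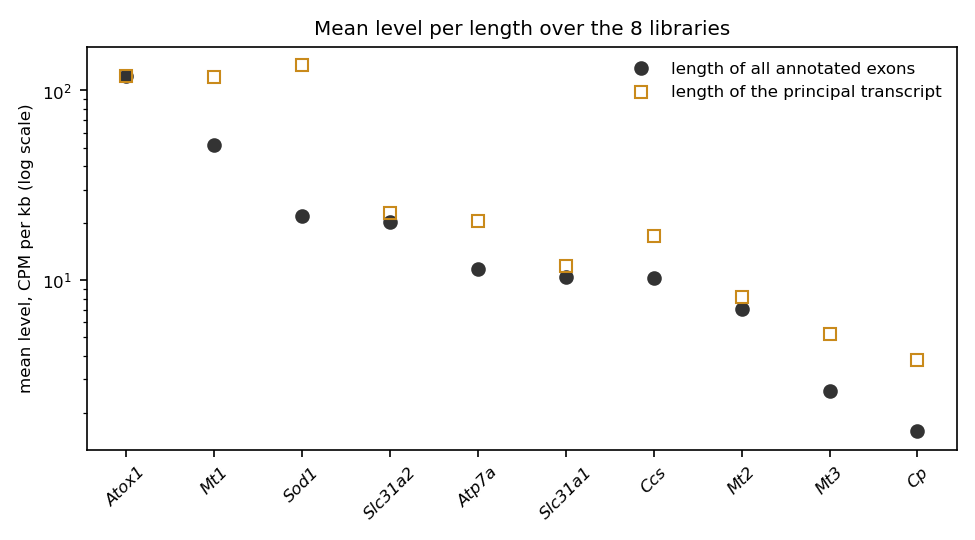
Mean level of each gene over the 8 libraries in CPM per kb (log axis), ordered by the value with all annotated exons (filled circles); open squares use the principal transcript. Atox1, Mt1 and Sod1 lead under both lengths, while Sod1 moves from 21.9 to 135.7 CPM per kb.

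None of the 10 genes passed the test between the named groups, by limma or in the authors' deposited table. Differences below are Qk-KO-named minus WT-named on the authors' regularized log2 scale, on which a difference of 1 is a doubling and values of genes with few reads are pulled together. Differences were above 0 for 6 members and below for 4, with a median of 0.11 against -0.0044 over all tested genes. In limma, with Benjamini-Hochberg adjustment over the 22546 tested genes, 0 of 10 members were called at an adjusted p under 0.05, where 0.00444% of all tested genes were. The smallest limma adjusted p among the members was 0.493, for Sod1. Before adjustment, 4 of 10 had p under 0.05, all with higher values in Qk-KO-named, against 8.26% of all tested genes in either direction and 3.76% with higher values. Among tested genes of at least 1 CPM, the level all 10 members reach, these shares were 10.3% and 5.2%. The authors' deposited table called none of the members (0 of 10), where 1.22% of its 14150 genes with an adjusted p were called. There 4 of 10 had an unadjusted p under 0.05, all with higher values, where 10.7% of those genes did in either direction and 5.67% with higher values. The named groups did not overlap for 2 of 10 members, Mt1 and Sod1, both with higher values in Qk-KO-named, where 5.73% of tested genes did not overlap in either direction and 3.04% with higher values (3.83% of those of at least 1 CPM). By genotype field, 0 of 10 members were called (0% of tested genes were) and 0 of 10 had a limma p under 0.05, where 2.67% of tested genes did. The genotype-field groups overlapped for all 10 members. Centring each library on its median added 0.077 to every difference by name, which left 0 of 10 members called and all 10 directions as they were.

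**Figure D2:**
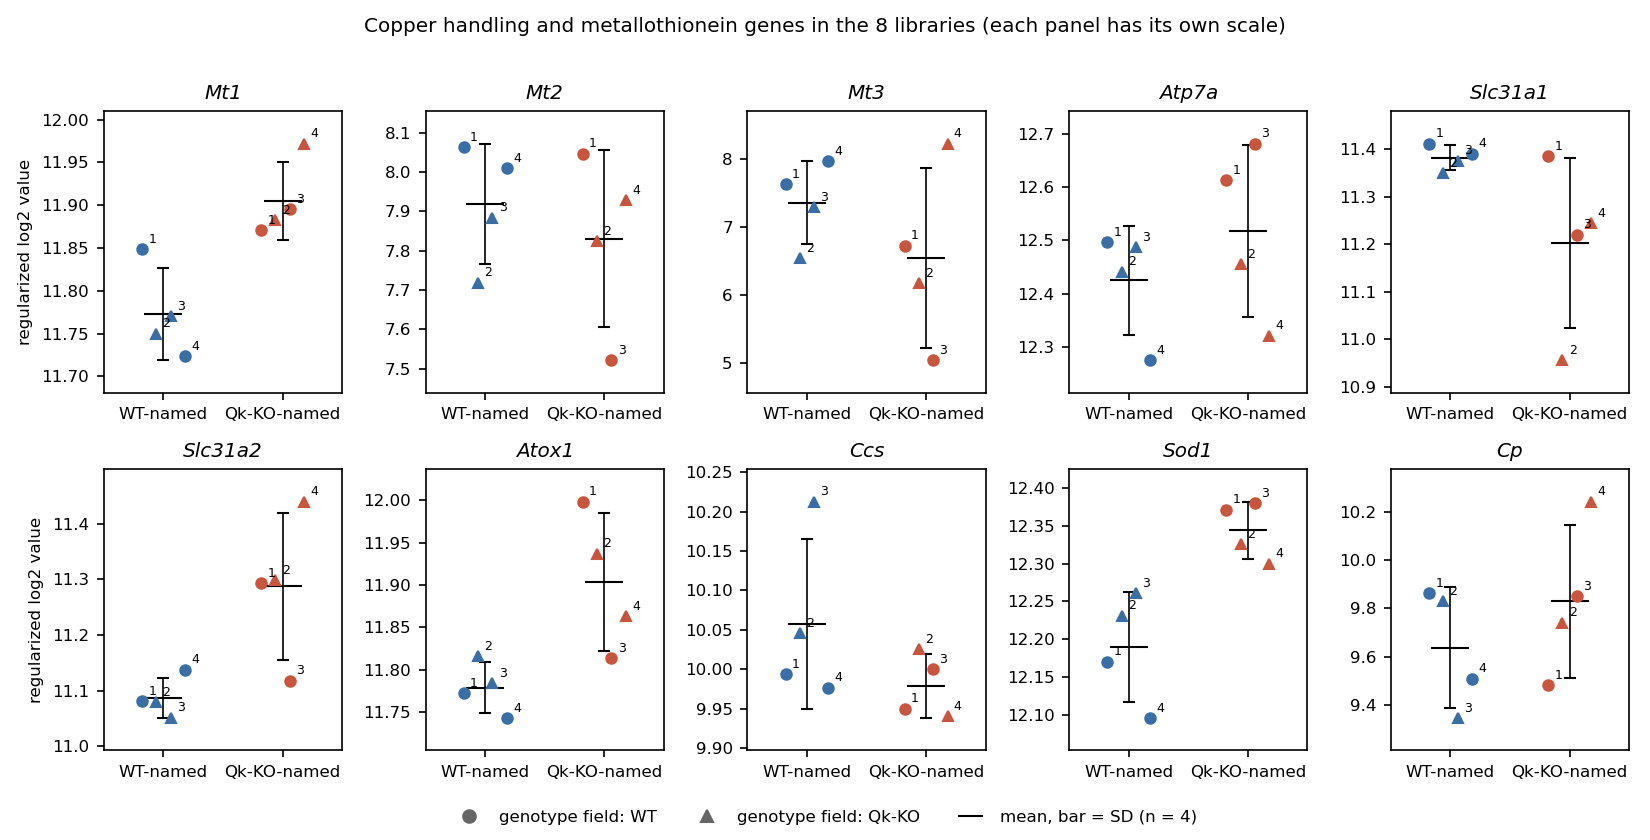
Regularized log2 value of each gene in every library, by named group, with the replicate number beside each point, the genotype field as the marker shape, and the mean and SD (n = 4) in black. The named groups are apart for Mt1 and Sod1, and Mt3 spans the widest range, from 5.04 to 8.23.

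Mt1, on chromosome 8 from 94179082 to 94180327 (plus strand, GRCm38), was the most even of the 3 metallothioneins across libraries. Its values on the regularized log2 scale were 11.85, 11.75, 11.77 and 11.72 in WT-named 1 to 4 and 11.87, 11.88, 11.90 and 11.97 in Qk-KO-named 1 to 4. Every Qk-KO-named library lay above every WT-named library, by a margin of 0.02 at the nearest pair. The means were 11.77 ± 0.05 and 11.91 ± 0.05 (SD, n = 4 each). The difference was 0.13 ± 0.05 (SE), or 1.10-fold with a 95% interval of 1.01 to 1.19, and was not called (limma, adjusted p = 0.543). The authors' deposited table gives 0.14 with an SE of 0.06 and an adjusted p of 0.313. By genotype field the difference was 0.0089 (95% interval -0.14 to 0.16; limma, adjusted p = 0.9995). The 4 libraries whose name and genotype field agree gave 0.14 by limma, also not called (adjusted p = 0.973), and median-centred libraries gave 0.21. Size factors, given above, were likewise apart between the named groups, and their part in this difference was not tested.

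Mt2, which encodes a near relative of the Mt1 protein, lies upstream of Mt1 at 94172664 to 94173568 on the same strand. Its mean signal was 15.5 times below that of Mt1, and 7.32 times below it per kb of exons. Values were 8.06, 7.72, 7.88 and 8.01 in WT-named 1 to 4 and 8.05, 7.82, 7.52 and 7.93 in Qk-KO-named 1 to 4. The groups overlapped, and Qk-KO-named 3 was the lowest. The difference was -0.09 ± 0.14 (SE; 95% interval -0.41 to 0.23; limma, adjusted p = 0.884), -0.07 by genotype field and 0.01 without Qk-KO-named 3. Within a library, Mt1 exceeded Mt2 by 3.71 to 4.03 in WT-named and by 3.82 to 4.37 in Qk-KO-named on the log2 scale. The annotated antisense gene Gm45774 shares 432 exon bases with Mt2 and has no row in the deposited table, so some reads counted for Mt2 could be its own.

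Mt3, at 94152607 to 94154146 in the same cluster, had the lowest mean CPM of the 3 and the widest spread of the 10 genes. Its values were 7.64, 6.54, 7.29 and 7.97 in WT-named 1 to 4 and 6.73, 6.17, 5.04 and 8.23 in Qk-KO-named 1 to 4. Qk-KO-named libraries held both the highest and the lowest value, and 98.8% of tested genes had a smaller SD within groups. The means were 7.36 ± 0.61 and 6.54 ± 1.32 (SD, n = 4 each), a difference of -0.82 ± 0.63 (SE; 95% interval -2.26 to 0.63; limma, adjusted p = 0.737). The authors' deposited table gives -0.31 with an SE of 0.51. Without Qk-KO-named 4 the difference was -1.38 and without Qk-KO-named 3 it was -0.32, with limma adjusted p of 0.199 and 0.956. By genotype field the difference had the other sign, 0.21 (limma, adjusted p = 0.9995). In bulk RNA, fewer cells of a type and less RNA per cell cannot be told apart.

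Astrocyte markers varied over the libraries in much the same order as Mt3. The mean log2 value of the 12 astrocyte markers was 9.38, 8.67, 8.79 and 9.95 in WT-named 1 to 4 and 8.53, 7.85, 7.10 and 9.95 in Qk-KO-named 1 to 4. The 2 orders of libraries differed only by an exchange of WT-named 4 with Qk-KO-named 4 at the top and of WT-named 2 with Qk-KO-named 1 further down. All 12 markers had reads, 12 of 12 had negative differences between the named groups, and none was called. Their summed level was 220.5 to 566.4 CPM in WT-named and 89.4 to 529.6 CPM in Qk-KO-named. Markers of other cell types were lower on average as well. Differences were negative for 7 of 8 endothelial, 8 of 8 mural and fibroblast, 5 of 6 choroid plexus and ependymal, 8 of 8 oligodendrocyte, 6 of 7 neuronal and 5 of 5 erythroid markers, with medians of -0.57, -0.49, -0.63, -0.34, -0.41 and -0.67, none called. Negative differences were also found for 6 of 6 neutrophil and 5 of 5 monocyte markers, with medians of -0.31 and -0.19, none called. The endothelial and the mural and fibroblast means were also highest in Qk-KO-named 4 and lowest in Qk-KO-named 3. The neuronal mean was highest in WT-named 4 (6.01), then in Qk-KO-named 4 (5.98), and lowest in Qk-KO-named 3 (4.66). The oligodendrocyte mean was lowest in Qk-KO-named 1. The choroid plexus and ependymal mean was highest in WT-named 1 and the erythroid mean in WT-named 2. The part of any of these cell types in the Mt3 values was not tested.

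**Figure D3:**
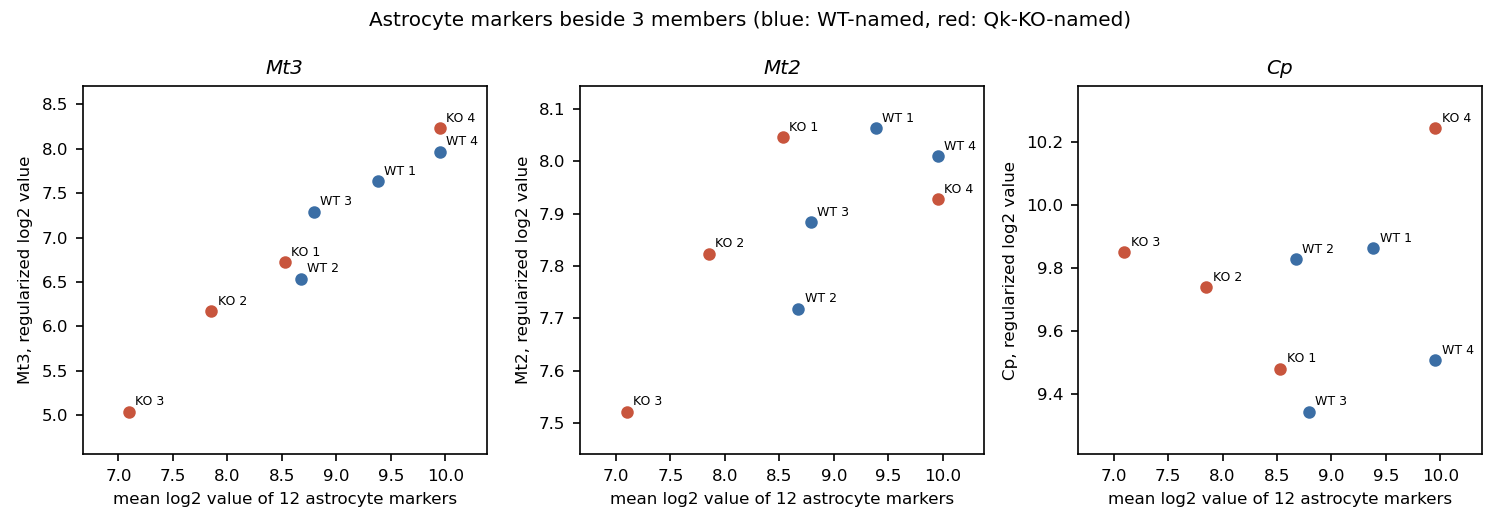
Regularized log2 values of Mt3, Mt2 and Cp (vertical axes) against the mean log2 value of 12 astrocyte markers (horizontal axis), 1 point per library, WT-named in blue and Qk-KO-named in red. Mt3 runs from 5.04 in the library with the lowest astrocyte mean (7.10, Qk-KO-named 3) to 8.23 in Qk-KO-named 4 (9.95), while Cp has no such order.

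The copper pore gene Slc31a1 had lower and its relative Slc31a2 higher values in most Qk-KO-named libraries, and neither difference was called. Slc31a1 (chromosome 4, 62360727 to 62391769, plus strand) was at 11.41, 11.35, 11.38 and 11.39 in WT-named 1 to 4 and at 11.39, 10.96, 11.22 and 11.25 in Qk-KO-named 1 to 4. All Qk-KO-named libraries but 1 lay below all WT-named libraries, the exception being number 1, which lay among them. The difference was -0.18 ± 0.08 (SE), or 0.882-fold (95% interval 0.774 to 1.01; limma, adjusted p = 0.617). Without Qk-KO-named 2, the lowest library, it was -0.10. Slc31a2, which encodes a related protein that influences how much copper is held inside cells, lies on the same chromosome at 62262562 to 62298411. Its values were 11.08, 11.08, 11.05 and 11.14 in WT-named 1 to 4 and 11.29, 11.30, 11.12 and 11.44 in Qk-KO-named 1 to 4. All but Qk-KO-named 3 lay above every WT-named library. The difference was 0.20 ± 0.07 (SE), or 1.15-fold (95% interval 1.03 to 1.28; limma, adjusted p = 0.510), and the authors' deposited table gives 0.21 with an adjusted p of 0.251. By genotype field the differences were -0.12 for Slc31a1 and 0.06 for Slc31a2, neither called.

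The transporter genes were also set against each other within each library. Slc31a2 minus Slc31a1 was between -0.33 and -0.25 in WT-named and between -0.10 and 0.34 in Qk-KO-named on the log2 scale. The means were -0.29 ± 0.04 and 0.09 ± 0.22 (SD, n = 4 each). The named groups did not overlap, while the genotype-field groups did. Atox1 minus Atp7a and Mt1 minus Mt3 overlapped between the named groups. The share of all gene pairs without overlap was not computed. Slc31a2 minus Slc31a1 was set out after its values were seen, so no test is given.

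**Figure D4:**
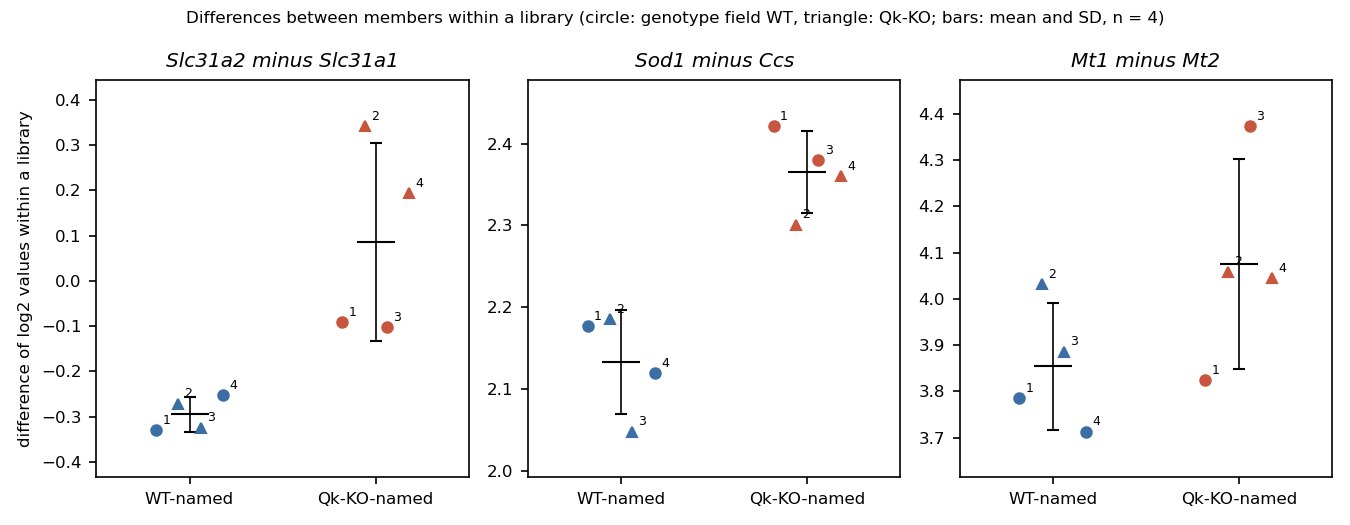
Difference between the log2 values of 2 genes within each library for Slc31a2 and Slc31a1, Sod1 and Ccs, and Mt1 and Mt2, by named group, with replicate numbers, the genotype field as marker shape, and mean and SD (n = 4). The named groups are apart in the first 2 panels (at most -0.25 against at least -0.10, and at most 2.19 against at least 2.30) and overlap in the third. By genotype field the groups overlap in every panel. The first 2 pairs were set out after their values were seen, and the share of all gene pairs without overlap was not computed.

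Atp7a, the copper-exporting ATPase (chromosome X, 106027276 to 106124926, plus strand), had the highest mean CPM of the 10 genes, 100.4, before its length was taken into account. Its values were 12.50, 12.44, 12.49 and 12.28 in WT-named 1 to 4 and 12.61, 12.46, 12.68 and 12.32 in Qk-KO-named 1 to 4. The groups overlapped, and replicate 4 was the lowest of each group. The difference was 0.09 ± 0.09 (SE; limma, adjusted p = 0.785), with -0.09 by genotype field. Without Qk-KO-named 3 it was 0.04 and without Qk-KO-named 4 it was 0.16; the 4 libraries with agreeing labels gave 0.0023. Atox1, the chaperone that hands copper to this ATPase (chromosome 11, 55446641 to 55461239, minus strand), was at 11.77, 11.82, 11.78 and 11.74 in WT-named 1 to 4. Its values in Qk-KO-named 1 to 4 were 11.998, 11.94, 11.81 and 11.86. Only Qk-KO-named 3 lay within the WT-named range. The difference was 0.12 ± 0.05 (SE), or 1.09-fold with a 95% interval of 1.002 to 1.19, and was not called (limma, adjusted p = 0.595). The genotype field gave 0.02.

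Sod1, the copper-zinc superoxide dismutase (chromosome 16, 90220754 to 90226329, plus strand), had the smallest adjusted p of the 10 genes in both sources, without passing the threshold. Its values were 12.17, 12.23, 12.26 and 12.10 in WT-named 1 to 4 and 12.37, 12.33, 12.38 and 12.30 in Qk-KO-named 1 to 4. All 4 Qk-KO-named libraries lay above all WT-named libraries. The means were 12.19 ± 0.07 and 12.34 ± 0.04 (SD, n = 4 each). The difference was 0.15 ± 0.05 (SE), or 1.11-fold (95% interval 1.03 to 1.21; limma, adjusted p = 0.493), and the authors' deposited table gives 0.16 with an adjusted p of 0.222. By genotype field the difference was 0.03 (95% interval -0.14 to 0.19; limma, adjusted p = 0.9995). As for Mt1, the size factors of the named groups were apart as well, and their part was not tested. An annotated near copy, Gm8566, matches a Sod1 transcript at 97.8% over 465 bases, and its own level was 0.0972 CPM against 87.0 CPM for Sod1.

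Ccs, whose protein inserts copper into SOD1 (chromosome 19, 4825366 to 4839332, minus strand), differed from Sod1 in sign between the groups. Its values were 9.99, 10.05, 10.21 and 9.98 in WT-named 1 to 4 and 9.95, 10.03, 9.9998 and 9.94 in Qk-KO-named 1 to 4. The groups overlapped, and WT-named 3 was the highest. The difference was -0.08 ± 0.07 (SE; limma, adjusted p = 0.774), -0.03 without WT-named 3 and 0.08 by genotype field. Sod1 minus Ccs within a library was 2.13 ± 0.06 in WT-named and 2.37 ± 0.05 in Qk-KO-named (SD, n = 4 each), with no overlap. The genotype-field groups overlapped. This pair, too, was set out after its values were seen, and Sod1 alone was already without overlap between the named groups.

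Cp, which encodes ceruloplasmin (chromosome 3, 19957054 to 20009145, plus strand), was at 9.86, 9.83, 9.35 and 9.51 in WT-named 1 to 4 and at 9.48, 9.74, 9.85 and 10.24 in Qk-KO-named 1 to 4. The groups overlapped, with Qk-KO-named 4 the highest. The difference was 0.19 ± 0.17 (SE; 95% interval -0.19 to 0.58; limma, adjusted p = 0.774). The genotype field gave 0.11. Leaving out 1 library moved it between 0.05 (without Qk-KO-named 4) and 0.31 (without Qk-KO-named 1), with 0.10 without WT-named 3, and the 4 libraries with agreeing labels gave 0.31. Cp shares 108 exon bases with Hps3 on the opposite strand, which was at 102.8 CPM against 15.3 CPM for Cp, and the sources used here do not say whether strand was used in counting, so some reads counted for Cp may belong to Hps3.

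**Figure D5:**
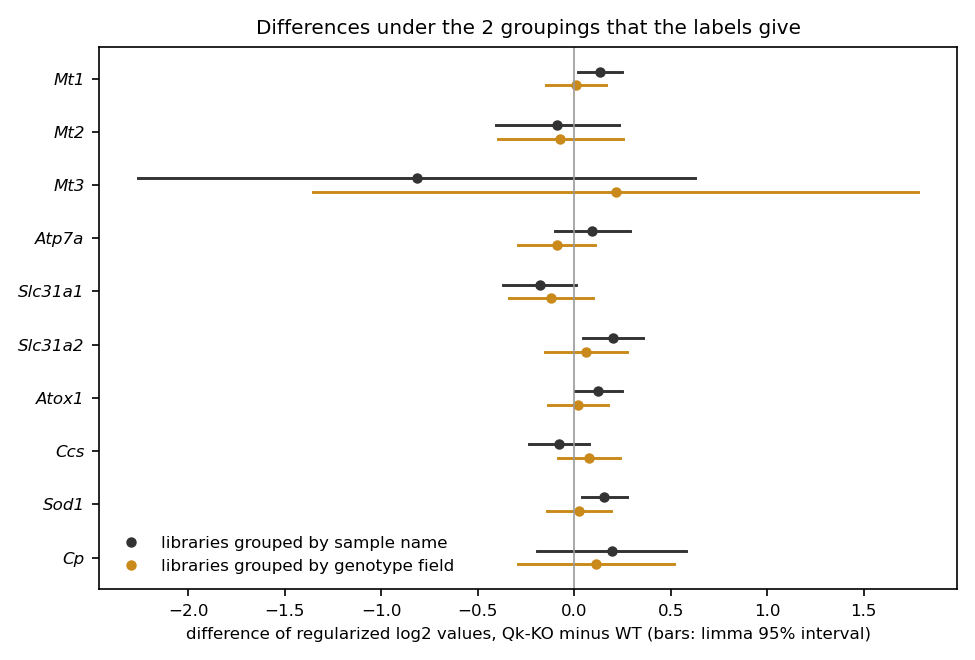
Difference of regularized log2 values, Qk-KO minus WT, with limma's 95% interval, for libraries grouped by sample name (dark) and by genotype field (ochre). By name the intervals of Mt1, Slc31a2, Atox1 and Sod1 lie above 0 before adjustment for multiple tests; by genotype field every interval includes 0.

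Other genes of copper metabolism, taken from a fixed list of 31 that holds further transporters, cytochrome oxidase copper chaperones, metal reductases and copper enzymes, also held no called gene. Of these, 28 were tested, 3 were listed at 0, and 0 were called by limma or in the authors' deposited table, which gives an adjusted p for 19 of them; 11 differences were above 0 and 17 below, with a median of -0.06. The highest difference at 1 CPM or more was that of Cutc, a gene linked to copper homeostasis, at 0.21 ± 0.10 (SE; limma, adjusted p = 0.650). The lowest was that of Atp7b, the copper ATPase best known from liver, at -0.65 ± 0.28 (SE; limma, adjusted p = 0.598), with a mean level of only 1.04 CPM. Among 26 zinc transporters and metal response genes, 22 were tested, 20 had an adjusted p in the authors' deposited table, and 0 were called in either source, with a median difference of -0.04. Slc30a5, a zinc transporter of the secretory pathway, was at 11.60 ± 0.02 in WT-named and 11.78 ± 0.09 in Qk-KO-named (SD, n = 4 each), a difference of 0.18 (limma, adjusted p = 0.444). The zinc importer Slc39a12 had the lowest difference, -0.67 ± 0.40 (SE; limma, adjusted p = 0.686).

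A list of antioxidant enzymes and their regulators held 25 tested genes. None was called in either source (24 had an adjusted p in the authors' deposited table). Of their differences, 17 were above 0 and 8 below, with a median of 0.06. Gpx3, a secreted glutathione peroxidase, was at 0.48 ± 0.26 (SE) and Gsr, glutathione reductase, at -0.16 ± 0.12 (SE; limma, adjusted p = 0.667 and 0.735). Of 11 glucocorticoid-responsive genes, listed because glucocorticoids induce Mt1 and Mt2, 0 were called by limma and 1 of the 9 with an adjusted p in the authors' deposited table, where 1.22% of all genes were called. That gene, Sgk1, a kinase induced by glucocorticoids, was 0.32 higher in Qk-KO-named in the authors' deposited table (adjusted p = 0.0190). Its regularized values were 15.84 ± 0.07 in WT-named and 16.15 ± 0.13 in Qk-KO-named (SD, n = 4 each), without overlap, and by genotype field its difference was -0.13 (limma, adjusted p = 0.9995). Of the 11 differences, 9 were above 0, with a median of 0.26 against -0.0044 over all tested genes. The mean log2 value of the 11 genes overlapped between the named groups. It ranged from 11.84 to 11.97 in WT-named and from 11.85 to 12.33 in Qk-KO-named. Cdkn1a, a cell cycle inhibitor, and Klf9, a transcription factor, marked the ends of that list at 0.71 ± 0.41 and -0.38 ± 0.26 (SE; limma, adjusted p = 0.682 and 0.709).

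The genes whose pattern over the 8 libraries was most like the mean of Mt1 and Mt2, among 13461 other genes of at least 1 CPM, were Nme2, AC154296.1, Vdac3, Cetn3 and Mmadhc. Their Pearson r with that mean was 0.975, 0.975, 0.971, 0.966 and 0.962 over 8 libraries. These are the highest of many values over few libraries, which differed in depth, and they are given as a description. The mean followed Mt2 (r = 0.902) more than Mt1 (r = 0.344), and Mt1 and Mt2 had an r of -0.09 with each other. The mean is therefore not a pattern that both genes share. The r of these 5 genes with Mt2 alone was not computed.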

How the data were processed

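RNA from 8 microglial libraries was sequenced. Per the submitters' processing notes, FastQC, HISAT2, StringTie, DESeq2 and mm10 were used, without roles or versions. The authors deposited 1 table of 46983 genes. Its library columns hold log2 values, which behave like regularized values, shrunken at low counts; 19497 genes without reads are listed at 0. Per the file headers, it also holds the authors' mean normalized signal (baseMean) and their log2 fold change, standard error, test statistic (a score), p-value and adjusted p-value. Counts per library were not analysed here.

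Genes with reads that reached a normalized value of 1 in 4 or more libraries (22546) were tested with limma 3.58.1 in R 4.3.3 (intensity trend, robust), unpaired, on the deposited values without a pseudocount, and called at an adjusted p under 0.05. The fit was tested on simulated data. CPM is the mean signal divided by 56.8, the signal equal to 1 CPM; summed marker levels use values taken off the log2 scale. Depth was estimated from genes whose reads all lie in 1 library. Locations and lengths are from GENCODE M21 (46488 gene IDs matched without version), promoters from RefSeq (9 of 10 members). Alternatives were other filters, moderation, scaling and groupings, a replicate block and leaving out each library. Besides the members, the text names the called genes of each list, for the pathway lists the highest and lowest difference at 1 CPM or more, and the 5 genes most like the mean of Mt1 and Mt2. P2ry12 is named as the microglial marker with the largest difference. Members and lists were chosen with earlier results of these data known. The number of libraries and shrinkage limit precision.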

Additional observations from a re-analysis of the deposited data

How the results depend on the processing

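No member was called by limma under any of the alternatives run, nor in the authors' deposited table (0 of 10 each; smallest adjusted p of a member 0.197), and without each library in turn the count of members called ranged from 0 to 0, with 2 to 4 at an unadjusted p under 0.05. Of 170 pairs of member and alternative, 166 kept their direction. Other filters, other moderation and the replicate block leave the difference itself unchanged, so those pairs could not reverse. Fits without 1 library share most of their libraries with the leading fit. By genotype field 3 of 10 reversed. By genotype field the difference was 0.21 for Mt3, -0.0906 for Atp7a and 0.0761 for Ccs, and without Qk-KO-named 3 it was 0.0140 for Mt2 (-0.161 to 0.0140 over the left-out libraries), each against the other sign by name; the cause was not tested. Over all genes, limma called 1 gene by name, 0 among genes of at least 1 CPM (1392 at an unadjusted p under 0.05), 0 by genotype field (602) and 3 in the 4 libraries with agreeing labels. Leaving out 1 library gave 0 to 7 calls: 0 on leaving out Qk-KO-named 3 (unadjusted p under 0.05 for 1410 genes), 7 for Qk-KO-named 4, 3 each for WT-named 2 and Qk-KO-named 2, and 2 for Qk-KO-named 1. With the replicate block limma called 1 gene and 0 members (smallest member adjusted p 0.269), and 2924 genes had an unadjusted p under 0.05, against 1863 without it. Deviations of same-numbered libraries correlated across genes at 0.04, 0.15, 0.25 and 0.46 for numbers 1 to 4. Those of differently numbered libraries correlated at -0.33 to 0.15, so a pairing by number cannot be set aside from these values. The leading fit was unpaired because no label says that a number marks a shared animal, litter or day. With libraries centred on their medians every difference was 0.077 higher: 0.21 for Mt1, 0.23 for Sod1, 0.28 for Slc31a2, 0.20 for Atox1, 0.17 for Atp7a, 0.27 for Cp, -0.10 for Slc31a1, -0.01 for Mt2, -0.0017 for Ccs and -0.74 for Mt3. Counts per library were not analysed here, so counting error was not set apart from the spread between libraries.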
